A study of Laccaria bicolor with 20 samples.

Results

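In mycelium of the ectomycorrhizal basidiomycete *Laccaria bicolor*, 87 of 23130 gene models had a low transcript level in medium with surplus ammonium while their level in medium without ammonium salts stayed near that of the control. They were chosen from the measured values themselves. Reads were scaled to CPM (counts of a gene at a library total of 1000000 reads) and averaged over the libraries of a medium, and each medium was set against control medium as the log2 ratio of mean CPM plus 1. A gene was taken when its control mean was at least 0.3 CPM, its log2 ratio was -1.2 or lower in surplus ammonium, between -0.5 and 0.5 without ammonium salts, and above -1.5 in reduced glucose. Of 14533 gene models with a sufficient control level, 185 met the limit for surplus ammonium. The limits for the medium without ammonium salts left 92 of these, since 47 were too low and 46 too high there, and the limit for reduced glucose removed 5 more.

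The strain was S238N in pure culture, grown on cellophane over agar for 2 weeks on modified MMN medium and then for 1 week on the test medium, in the dark at 25 °C. Control medium held 1.89 mM diammonium phosphate, 3.67 mM potassium dihydrogen phosphate and 0.5% glucose. The +N medium had 25 mM of an ammonium chloride salt added, so surplus ammonium and surplus chloride cannot be told apart, and the −N medium lacked all ammonium salts, with its phosphate made up by the potassium salt. Glucose was 0.02% in −C medium and 2% in +C medium. The −P medium lacked phosphate salts, potassium dihydrogen phosphate included, with its ammonium made up by the chloride salt. It therefore held less potassium and more chloride than control. The +P medium had 25 mM potassium dihydrogen phosphate added, so that it differed in potassium too. The listed recipe holds 0.5% malt extract and 1% casein hydrolysate, and no change of these is described for any medium. The −N medium therefore lacked ammonium salts, not all nitrogen. Each medium had 3 libraries and +P had 2, with totals of 9470656 to 33122623 reads per library. Mycelium was sequenced in bulk, and fewer hyphae of one kind cannot be told apart from less RNA of a gene per hypha.

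Fungi take up ammonium through membrane transporters and bind it into glutamate and glutamine, from which other nitrogen compounds are made. Where a preferred source such as ammonium is plentiful, ascomycete model fungi switch off many genes for the use of other nitrogen sources, a response known as nitrogen metabolite repression. Ectomycorrhizal fungi such as *L. bicolor* forage soil for nitrogen and pass part of it to the roots of their host tree. Glutathione transferases couple glutathione to reactive compounds, ATP-binding cassette (ABC) transporters move substances across membranes at the cost of ATP, and permeases of several families carry nucleobases, amino acids, peptides or ions into cells or between compartments.

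Surplus ammonium was the medium with the lowest mean level for 81 of the 87 genes. The log2 ratio of +N to control ran from -2.91 to -1.203 with a median of -1.40, and the mean control level was 2.31 to 7.75 times the +N level. These values chose the genes and are given as a description. For 83 genes every +N library was below every control library, and for 78 it was also below all other 17 libraries. The limit in +N favours these counts and that of 81, and the shares over all genes were not counted. Together the 87 genes took 1.32% ± 0.105 of the reads in control medium (SD, n = 3), 0.463% ± 0.0117 in +N, 1.37% ± 0.00533 in −N and 2.24% ± 0.0210 in −C. The media that the choice did not use gave shares near that of the control, with 1.21% ± 0.0286 in +C, 1.33% ± 0.00844 in −P and 1.25% ± 0.000553 in +P (SD, n = 2). The genes had a median control level of 50.4 CPM per kilobase against 15.3 over all genes with a control level. The choice sets part of this difference. With 1 CPM added to each mean, genes of the lowest control levels could not reach the limit in +N.

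**Figure D1:**
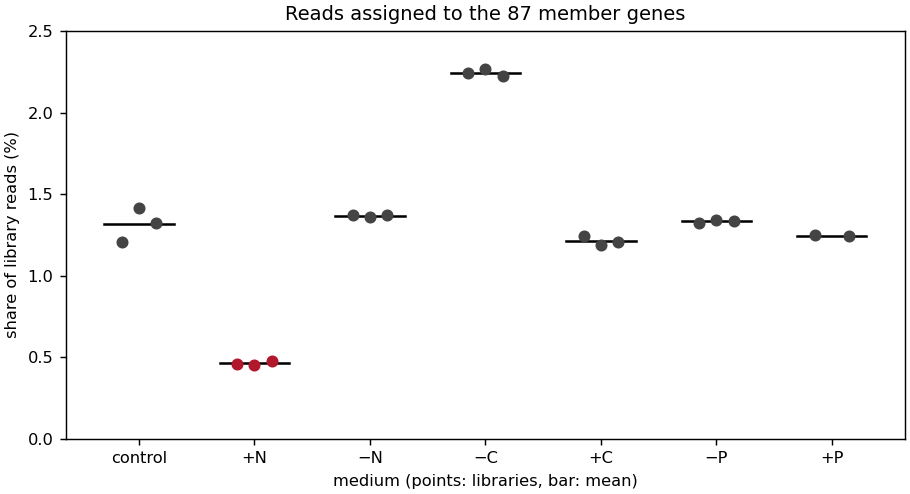
Share of each library's reads assigned to the 87 genes, in percent, by medium; points are libraries and bars are means. The +N libraries lie between 0.452% and 0.475%, the −C libraries between 2.22% and 2.27%, and those of the other media between 1.19% and 1.42%.

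The name under which these genes were grouped, repressed by surplus ammonium only, did not hold for all of them. In reduced glucose, where the choice allowed a fall, 22 genes were below -0.5 and 35 above 0.5 on the log2 ratio. In +C 20 genes were below -0.5 and 1 was above 0.5, and in +P 17 were below and 4 above. The choice used neither medium, but these ratios share its control mean, so some lean to low ratios is built in. The 4 short gene models described below are among the low genes in both media. The share of all genes beyond these limits was not counted in any medium. Over all genes with a control level the median ratio was 0.06 in +C and 0.05 in +P. In −P 82 of 87 stayed within 0.5. In −N, held within 0.5 by the choice, 20 genes were still called by the test across all genes, 10 higher and 10 lower, where 31.7% of all genes tested were called. By this test (edgeR's quasi-likelihood test, Benjamini-Hochberg adjusted p under 0.05), 10 genes were called in +N against control and in none of the other 7 comparisons made. These 10 are named by that outcome, seen in the values, and include the Cu/Zn superoxide dismutase JGI-303799, which removes superoxide, the FAD-dependent monooxygenase JGI-694245 and the proteinase inhibitor JGI-476306. How many of all genes tested show this outcome was not counted, and a gene not called may still differ. The low and scattered levels of JGI-303799 were 7.61, 7.07 and 3.21 CPM in control, 1.41, 2.02 and 1.92 in +N and 11.1, 13.4 and 4.99 in −C. The proteinase inhibitor JGI-476306 had 49.9, 51.7 and 33.9 CPM in the control libraries and 13.8, 10.96 and 14.3 in +N. Its levels in all other media lay between 32.1 and 59.0 CPM, so that no library outside +N came near those of +N.

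**Figure D2:**
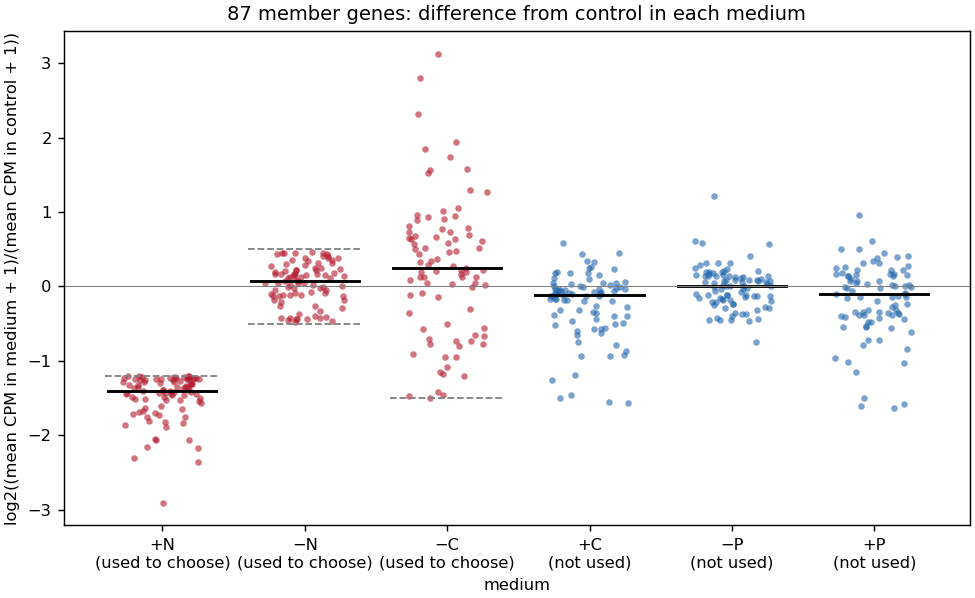
Log2 ratio of mean CPM plus 1 in each medium to that in control for the 87 genes; points are genes, black bars are medians, and dashed lines are the limits used to choose the genes in +N, −N and −C. The median is -1.40 for the +N medium and 0.08 for −N, while reduced glucose has a median of 0.25 and the widest spread. The media not used have medians of -0.12 (+C), 0.01 (−P) and -0.10 (+P).

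Libraries did not all sort by medium. By the profile over all genes, control replicate 3 and −P replicate 1 were nearest to each other, as were +C replicate 1 and +P replicate 1. The library nearest to +P replicate 2 was +C replicate 2, so neither +P library was nearest to the other. Results that involve these media are given with and without single libraries where that changed a count. Control replicate 2 also stood apart for 4 short gene models without annotation, JGI-602287, JGI-601766, JGI-602082 and JGI-674742. JGI-602287 had 21.3, 164.5 and 19.8 CPM in the control libraries and 24.7, 18.7 and 39.4 CPM in +N, so the groups overlapped and its place among the 87 rests on control replicate 2. JGI-674742 had 108.0, 717.8 and 140.6 CPM in control and 104.9, 116.7 and 186.1 CPM in +N, with the same overlap. The models JGI-602287, JGI-601766 and JGI-602082 are each 0.282 kb long and had nearly equal counts in every library, so reads may have been shared among them. These 4 were the members not called in +N against control. The other 83 were all called lower, where 29.8% of all genes tested were called and 15.7% were lower, a count that the choice itself fixed. All counts of calls in other comparisons were the same over the 83 as over the 87, because none of the 4 was called in any of them.

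**Figure D3:**
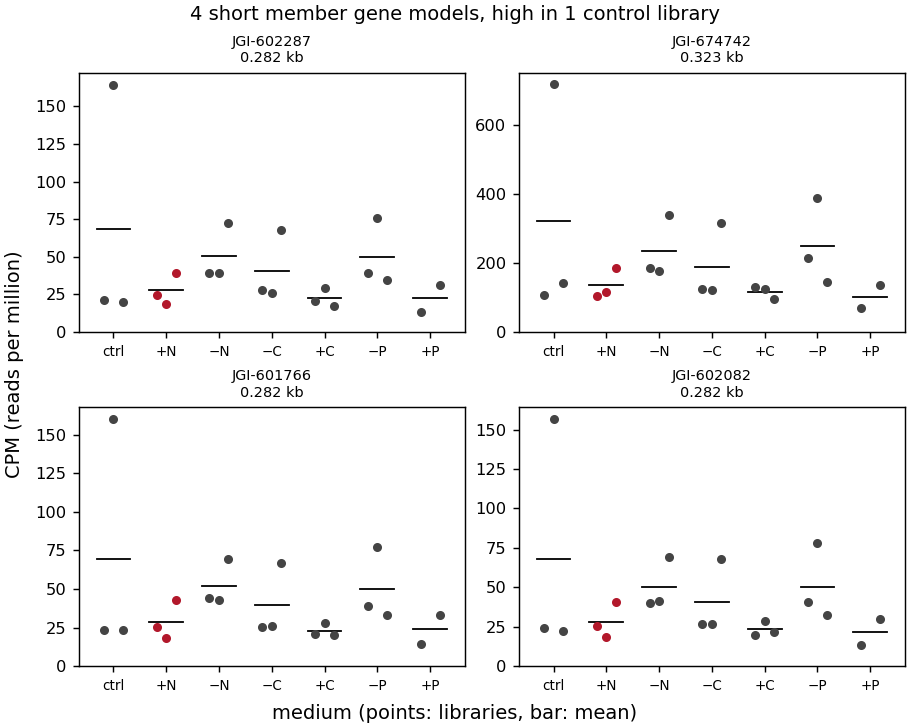
CPM in each library of the 4 short gene models, by medium; points are libraries, bars are means, and each panel has its own linear axis from 0. Control replicate 2 has 157 to 165 CPM for the 0.282 kb models and 718 CPM for JGI-674742, and the other control libraries lie within the range of the +N libraries.

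The means compared between +P and −P medium came from no library on which the choice rested. The spread behind the test was estimated over all 20 libraries, those of the choice included. It asked whether genes that were low under surplus ammonium also moved between media of different phosphate supply. These media differ in potassium and chloride too, and the parts of each cannot be told apart. Of the 87 genes 24 were called, 21 lower in +P and 3 higher, which is 24.1% of the genes lower and 3.45% higher, while 9.64% of all 14725 genes tested were called, 5.7% lower and 3.93% higher. The fall of the 21 ranged from -2.60 to -0.42 on the log2 scale with a median of -0.70. The median over all 87 was -0.18 against 0.01 over all genes tested. Leaving out 1 library at a time gave 17 to 27 called genes. The part of the higher expression of the 87 genes in this share of calls was not tested.

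Medium with surplus glucose was compared with −P medium in the same way. The means again came from libraries not used in the choice, and the spread from all 20. These media differ in glucose, phosphate, potassium and chloride. Here 31 of the 87 were called, 29 lower in +C and 2 higher, or 33.3% and 2.3%, against 10.3% of all genes tested, 5.66% lower and 4.69% higher. The 29 fell by a median of 0.60 on the log2 scale. With only the compared media in the fit 14 were called. This comparison shares the −P libraries with the one above, so the pair are not independent of each other.

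Against control medium, whose libraries the choice did use, 26 of the 87 were called in +C, 25 of them lower, where 9.05% of all genes tested were called, 4.75% lower and 4.29% higher. In +P 23 were called, 21 of them lower, where 9.83% of all genes were called, 5.6% lower and 4.23% higher. The +C count was 15 with only the compared media in the fit and 17 without +C replicate 3, and the +P count was 12 without +P replicate 2. These comparisons share the control libraries with the choice and with each other. In −P none was called by edgeR, where 0.0951% of all genes were called. At an unadjusted p under 0.05, 17 passed, and DESeq2 called 2. Without −P replicate 1, 8 were called. The shares of all genes that passed under these settings were not counted.

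**Figure D4:**
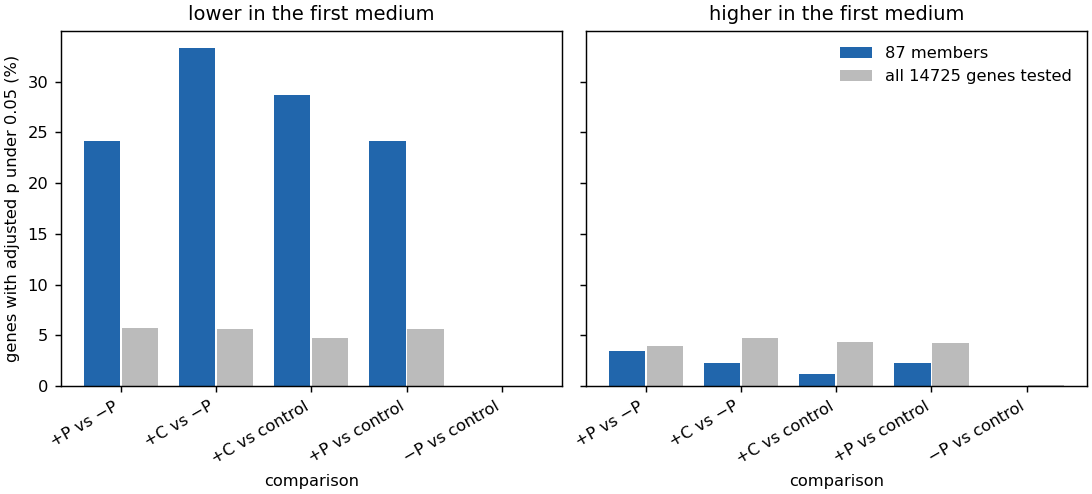
Percent of the 87 genes (blue) and of all 14725 genes tested (grey) with an adjusted p under 0.05, lower (left) or higher (right) in the first-named medium of each comparison. The blue bars for lower genes reach 24.1% in +P against −P and 33.3% in +C against −P, where the grey bars are at 5.7% and 5.66%.

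There were 3 glutathione transferases among the 87, and 1 of them had the lowest +N ratio of all. JGI-438154, of the phi class by its domain annotation, had 237, 208 and 216 CPM in control and 32.4, 28.3 and 24.7 in +N, a log2 ratio of -2.91. In −C the same gene had 2031, 2003 and 1767 CPM, the highest −C ratio of the 87 at 3.13. No library of any other medium fell outside the span from +N to −C. JGI-674829 had 693, 782 and 691 CPM in control, 316, 263 and 291 in +N and 2412, 2544 and 2258 in −C. JGI-628402 had 196, 209 and 211 CPM in control, 74.3, 71.5 and 63.6 in +N and 377, 404 and 368 in −C. All 3 genes thus stood lowest in +N and highest in −C, with no overlap of these libraries with control. The direction was not particular to them. Of 9 tested genes annotated as glutathione transferases, these 3 included, 8 were lower and 0 higher in +N than in control. In −C 5 were higher and 1 lower. Of all genes tested 15.7% were lower in +N and 18.2% higher in −C. Between +P and −P none of the 3 passed the test, with log2 differences of 0.66 ± 0.25 (SE, adjusted p = 0.101) for JGI-438154, -0.13 for JGI-628402 and -0.18 for JGI-674829. JGI-674829 fell by 0.38 ± 0.10 in +C against −P (adjusted p = 0.0112), a call lost in 3 of 14 alternative fits.

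The 3 ABC transporters are long genes of the pleiotropic drug resistance type, known in yeasts for the export of toxic compounds. JGI-399829 had 657, 661 and 728 CPM in control, 196, 200 and 188 in +N, 939, 885 and 957 in −N, and 1622, 1642 and 1680 in −C. JGI-392638 had 552, 607 and 725 CPM in control, 187, 205 and 195 in +N, and 1083, 1050 and 1105 in −C. JGI-314719 had 173, 218 and 220 CPM in control, 82.0, 81.4 and 81.1 in +N, and 415, 421 and 407 in −C. Like the glutathione transferases they were lowest in +N and highest in −C in every library. Of 25 tested genes annotated as ABC transporters, these 3 included, 15 were lower and 0 higher in +N than in control. In −C 13 were higher and 5 lower. In the comparisons that the choice did not use, JGI-314719 fell by 0.78 ± 0.15 in +C against −P (adjusted p = 0.00123), while JGI-399829 differed by 0.15 ± 0.10 and JGI-392638 by 0.02 ± 0.14, which did not pass. None of the 3 passed the test in +P against −P.

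The 87 included 9 transporters that carry nutrients or other solutes without ATP. Of these, 6 were lower in +P than in −P, 1 was higher and 2 did not pass, where 5.7% of all genes tested were lower and 3.93% higher. In +C against −P, 6 were lower and 3 did not pass, where 5.66% of all genes tested were lower. The group was formed from annotation words after the values were seen. Its largest part is 3 nucleobase permeases, which in fungi take up purines and pyrimidines that can serve as nitrogen sources. Of 8 tested genes annotated as such, these 3 included, 4 were lower and 1 higher in +N than in control. In +P against −P 3 of the 8 were lower and 1 higher. In +N 18 of 72 tested major facilitators were lower and 23 higher. Of 15 amino acid-polyamine permeases 4 were lower and 6 higher there, and of 5 oligopeptide transporters 3 and 0. Of all genes tested 15.7% were lower and 14.1% higher in +N. The xanthine/uracil permease JGI-253376 had 29.6, 43.9 and 42.3 CPM in control, 10.7, 10.5 and 11.6 in +N, 45.0, 42.6 and 44.5 in −N, and 150.0, 151.5 and 150.5 in −C. It had 37.7, 34.6 and 32.9 CPM in −P, 19.8 and 17.3 in +P, and 16.5, 22.3 and 20.7 in +C. The +P and +C libraries thus lay below all −P libraries and above all +N libraries. JGI-253376 fell by 1.01 ± 0.14 on the log2 scale in +P against −P (adjusted p = 6.18e-05) and by 0.94 ± 0.12 in +C against −P (adjusted p = 2.43e-05).

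A related permease, JGI-245695, had 54.6, 66.5 and 73.1 CPM in −P and 47.4 and 43.2 in +P. It fell by 0.60 ± 0.11 (adjusted p = 0.000725), a smaller fall than that of JGI-253376, although the difference between these genes was not tested. The NCS1-family nucleobase transporter JGI-310067 had 15.01, 19.4 and 23.3 CPM in −P and 11.7 and 13.7 in +P, and fell by 0.68 ± 0.15 (adjusted p = 0.0036), a call lost in 2 of 13 alternative fits. It lay nearest to the limit of the choice, with a log2 ratio in +N of -1.203.

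The amino acid permease JGI-191715, of the family that carries amino acids and polyamines with protons or sodium, had 74.0, 110.9 and 116.4 CPM in −P, 51.6 and 34.5 in +P and 33.5, 51.3 and 49.2 in +C. No +P or +C library reached the −P range. It fell by 1.30 ± 0.19 in +P against −P (adjusted p = 7.42e-05) and by 1.28 ± 0.16 in +C against −P (adjusted p = 1.34e-05). In +N it had 20.2, 22.5 and 25.7 CPM, against 55.3, 74.3 and 70.4 in control and 167, 168 and 162 in −C. The oligopeptide transporter JGI-250173, of a family that imports short peptides, had 78.3, 79.3 and 89.5 CPM in −P, 63.5 and 44.5 in +P and 44.6, 60.4 and 55.1 in +C. Its fall was 0.70 ± 0.13 in +P (adjusted p = 0.000725) and 0.73 ± 0.11 in +C (adjusted p = 0.00011), again with no overlap. In −C it had 246, 243 and 231 CPM, 2.99 times the control mean, where JGI-191715 had 2.49 times and JGI-253376 3.91 times its control mean.

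The major facilitator JGI-310516, of a large family of sugar, ion and metabolite carriers, differed from these in −C. It had 16.2, 16.96 and 16.1 CPM in control, 6.08, 5.19 and 4.97 in +N, and 9.31, 8.60 and 6.90 in −C. In −P it had 14.6, 20.9 and 18.8 CPM, against 5.89 and 7.79 in +P and 6.66, 8.57 and 9.19 in +C. JGI-310516 was therefore low in +N, −C, +C and +P and high only in control, −N and −P, with no overlap between the 2 sets of media. It fell by 1.47 ± 0.16 in +P against −P (adjusted p = 1.71e-06) and by 1.26 ± 0.14 in +C against −P (adjusted p = 1.46e-06). Another major facilitator, JGI-333006, did not pass in either comparison (log2 differences of -0.15 and -0.24).

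The potassium uptake permease JGI-482899 had 163, 163 and 157 CPM in control, 60.2, 62.3 and 63.4 in +N, and 1189, 1138 and 1070 in −C, 7.03 times the control mean. It was the 1 transporter higher in +P than in −P, with 180.3 and 203.9 against 154, 121 and 114 CPM and a rise of 0.47 ± 0.15 (adjusted p = 0.0438). That call was lost in 7 of 13 alternative fits, and these media differ in potassium as well as phosphate. The drug/metabolite superfamily member JGI-695067, annotated as related to nucleotide-sugar transporters, went the other way in glucose shortage. It had 85.7, 66.9 and 63.7 CPM in control, 14.6, 15.6 and 19.7 in +N and 26.6, 28.01 and 22.0 in −C.

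**Figure D5:**
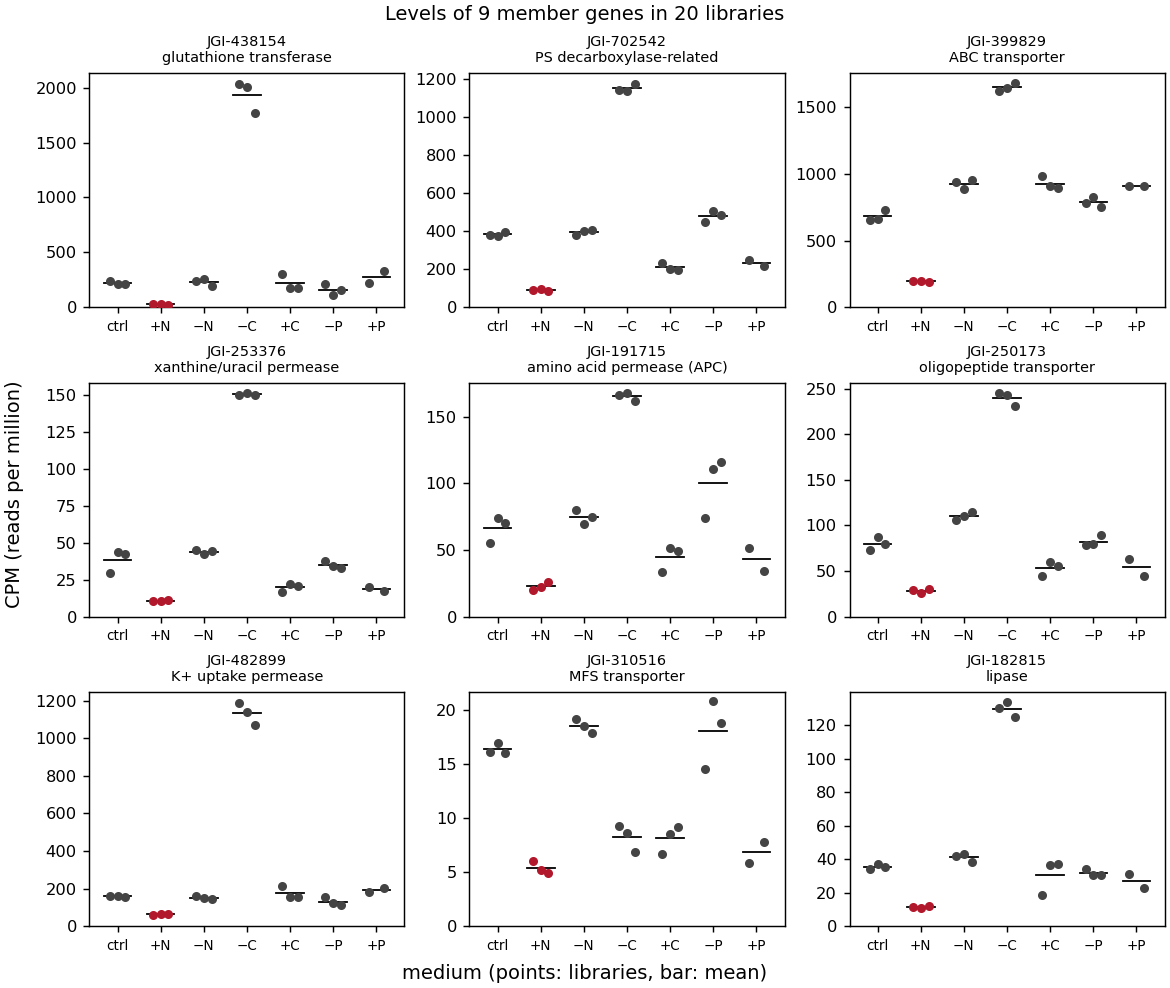
CPM in each of the 20 libraries for 9 of the 87 genes, by medium; points are libraries (+N in red), bars are means, and each panel has its own linear axis from 0. The +N libraries are the lowest in every panel except that of JGI-310516, where +P replicate 1 at 5.89 CPM lies among them, and −C is the highest in all but JGI-310516, where −C lies at 6.90 to 9.31 CPM.

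The smallest adjusted p of the 87 in both comparisons with −P was that of JGI-702542, a protein related to phosphatidylserine decarboxylase, which makes phosphatidylethanolamine for membranes. It had 450, 504 and 487 CPM in −P, 249 and 215 in +P, and 231, 202 and 197 in +C. The fall was 1.13 ± 0.12 in +P against −P (adjusted p = 1.17e-06) and 1.28 ± 0.10 in +C against −P (adjusted p = 3.33e-08). In +N JGI-702542 had 91.7, 93.4 and 87.7 CPM against 379, 376 and 398 in control, and in −C it had 1141, 1136 and 1176. The order of media was thus +N, then +C and +P, then control and −N, then −P and then −C. The +C and +P libraries overlapped each other, and the control and −N libraries did so too.

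There were 4 transcription factors among the 87. JGI-706259, a C2H2 zinc finger protein, had 28.4, 30.8 and 25.6 CPM in control and 6.37, 4.74 and 5.40 in +N. In +C it had 19.0, 14.9 and 13.8 CPM against 26.9, 19.5 and 23.0 in −P, a fall of 0.61 ± 0.17 (adjusted p = 0.0223) with its highest +C library just below the lowest −P library. That call was lost in 4 of 14 alternative fits. The fungal-specific factors JGI-697312, JGI-668161 and JGI-701575 had control means of 79.9, 172.8 and 127.7 CPM and +N means of 24.2, 65.8 and 49.6. JGI-668161, named LbNosA in the study's annotation, and JGI-701575 were also low in −C, at 97.2 to 106 and 75.4 to 79.9 CPM. Neither passed the test in +P or +C against −P. JGI-697312 fell by 0.30 ± 0.09 in +C against −P (adjusted p = 0.0393), a call lost when any single +C or −P library was left out. The protein kinase JGI-708139 fell by 0.44 ± 0.09 in +P against −P (adjusted p = 0.0022), from 215, 199 and 208 to 161 and 164 CPM.

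Enzymes of oxidation and reduction, as picked by annotation words, were 6 of the 87, apart from the superoxide dismutase JGI-303799, which was counted with the secreted proteins. In +P against −P 1 of the 6 was called, where 9.64% of all genes tested were. That gene, JGI-315146, carries the haem peroxidase and cytochrome P450 domains of fatty acid oxygenases that in *Aspergillus* make hormone-like psi factors. It had 113, 91.1 and 112 CPM in −P, 76.9 and 91.9 in +P and 85.3, 67.1 and 68.6 in +C. The fall was 0.42 ± 0.13 in +P (adjusted p = 0.0418), where the libraries overlapped, and 0.60 ± 0.11 in +C (adjusted p = 0.00119), where they did not. The call in +P was lost in 7 of 13 alternative fits and that in +C in 1 of 14. The short-chain dehydrogenases and reductases JGI-472925, JGI-656334 and JGI-704679 did not pass in either comparison. JGI-704679 was among the most abundant of the 87, with 743, 817 and 848 CPM in control and 333, 346 and 363 in +N.

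The glycogen branching enzyme-like JGI-292800, of family GH13 with a CBM48 module, had 696.1, 696.2 and 725 CPM in control, 299, 312 and 290.5 in +N and 1227, 1259 and 1138 in −C. It did not pass in +P against −P (-0.40 ± 0.13, adjusted p = 0.0636). The lipase JGI-182815, listed as secreted, had 33.9, 37.0 and 35.1 CPM in control, 11.6, 10.96 and 12.2 in +N and 130.1, 134 and 125 in −C.

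Small secreted protein JGI-295120 had the largest fall in both comparisons with −P. It had 3.09, 15.003 and 10.9 CPM in −P, 1.96 and 1.39 in +P and 1.10, 1.87 and 2.96 in +C, a fall of 2.60 ± 0.49 (adjusted p = 0.00117) and of 2.46 ± 0.41 (adjusted p = 0.00037). These levels are low, and −P replicate 1 lay close to the highest +C library. In control the gene had 3.43, 5.11 and 2.29 CPM. The −P replicate 1 lay within this range and the other −P libraries lay above it. The log2 ratio to control was 1.21 in −P, -0.79 in +P and -0.63 in +C. The larger part of the fall was thus a high level in −P, although the gene was not called in −P against control. Of the genes without annotation, JGI-630912 had 48.9, 50.01 and 59.8 CPM in −P, 28.9 and 26.6 in +P and 24.3, 26.2 and 24.1 in +C. It fell by 1.02 ± 0.14 (adjusted p = 6.33e-05) and by 1.18 ± 0.13 (adjusted p = 1.46e-06). In −C JGI-630912 was low as well, at 25.3, 29.2 and 26.2 CPM against 49.8, 68.5 and 55.5 in control. JGI-315197 shared that order, with 69.8, 76.2 and 73.9 CPM in control, 35.5, 38.7 and 38.3 in −C, 36.3, 26.5 and 27.3 in +C and 23.9, 23.3 and 25.3 in +N. JGI-476364 had a smaller but tight fall of 0.57 ± 0.08 in +P against −P (adjusted p = 3.56e-05), from 74.0, 82.0 and 75.1 to 52.1 and 57.7 CPM.

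Genes called higher in these comparisons were 3.45% of the 87 in +P and 2.3% in +C against −P. Of all genes tested 3.93% and 4.69% were, so the share in +P was near the general one. JGI-331339, annotated with a question mark as a terpenoid synthase, had 7.10, 8.13 and 9.02 CPM in −P, 22.7 and 18.7 in +P and 19.7, 10.6 and 11.6 in +C. It rose by 1.27 ± 0.22 (adjusted p = 0.000468) and by 0.76 ± 0.20 (adjusted p = 0.0164), with no overlap in either case, and the latter call was lost in 4 of 14 alternative fits. In −C it reached 53.7, 54.6 and 55.8 CPM against 11.3, 9.15 and 9.88 in control. JGI-334610, without annotation, had 2.33, 0.893 and 0.644 CPM in −P and 5.29 and 4.47 in +P, and rose by 1.74 ± 0.38 (adjusted p = 0.00446). It also rose by 1.24 ± 0.36 in +C (adjusted p = 0.0278), although −P replicate 1 at 2.33 CPM was not far below the lowest +C library at 2.85 CPM. The call in +P was lost in 1 of 12 alternative fits and that in +C in 4 of 13.

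The 10 genes with the lowest ratios in +N differed from each other in the remaining media. JGI-648533, without annotation, had 76.3, 80.6 and 65.6 CPM in control, 13.9, 13.3 and 15.3 in +N, and between 65.6 and 81.5 CPM in the −N, +C, −P and +P libraries. In −C it had 127, 131 and 111 CPM, above all other libraries. It fell by 0.27 ± 0.07 in +C against −P (adjusted p = 0.0164), a call lost in 4 of 14 alternative fits. JGI-171643 had 352, 422 and 449 CPM in control and 88.7, 90.6 and 91.7 in +N, and JGI-701217 had 166, 187 and 177 CPM in control and 46.2, 44.5 and 49.8 in +N. Neither has annotation, and both had +N libraries far below those of every other medium. JGI-701217 fell by 0.57 ± 0.10 in +C against −P (adjusted p = 0.000834), and JGI-171643 by 0.38 ± 0.12 (adjusted p = 0.0374), a call lost in 6 of 14 alternative fits. JGI-579271, with N-acetyltransferase annotation, had 104, 122 and 129 CPM in control and 31.0, 32.5 and 31.6 in +N. It fell by 0.43 ± 0.12 in +P against −P (adjusted p = 0.0272), a call lost in 5 of 13 alternative fits, and by 0.46 ± 0.11 in +C against −P (adjusted p = 0.00753). JGI-449802, an unknown protein of a family expanded in *L. bicolor*, had 50.9, 49.7 and 47.7 CPM in control, 11.3, 10.2 and 11.5 in +N and 18.1, 18.2 and 14.4 in −C, and did not pass in either comparison with −P.

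The −C medium divided the group most. The choice used these libraries, so the values are a description. Against control 38 of the 87 were called higher and 19 lower, where 37.6% of all genes tested were called, 18.2% higher and 19.4% lower. The highest mean was in −C for 49 of the 87. The choice limited +N and −N from above but not −C, which favours this count, and the share of all genes was not counted. The highest ratios were those of JGI-438154, JGI-482899 and JGI-331339, at 3.13, 2.81 and 2.32. The lowest were those of JGI-449802, JGI-705254 and JGI-695067, at -1.49, -1.48 and -1.46, close to the limit of -1.5. JGI-705254 had 93.4, 173.7 and 144 CPM in −P, 58.5 and 49.7 in +P and 40.9, 105.4 and 109.6 in +C, so that +C replicate 1 lay with the +P libraries. It fell by 1.42 ± 0.25 in +P against −P (adjusted p = 0.000712).

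No annotated gene for ammonium transport and assimilation, or for nitrate and nitrite use, was among the 87. Since only 87 of 14533 gene models with a sufficient control level were chosen, absence from such short lists says little. Of 8 annotated genes for ammonium transport and assimilation 3 were higher and 4 lower in +N than in control, and of 5 for nitrate and nitrite use 1 was higher and 3 were lower, where 14.1% of all genes tested were higher and 15.7% lower, but none met all limits. The glutamate dehydrogenase JGI-292653, which makes glutamate from ammonium, had a log2 ratio of -3.92 in +N and was left out because it was also low in −N, at -1.83. Of 26 tested genes for amino acid and peptide uptake, 9 were higher and 7 lower in +N, and the 2 members JGI-191715 and JGI-250173 were among the latter. In +P against −P, 6 of these 26 were lower and 2 higher, where 5.7% and 3.93% of all genes tested were, with a median of -0.16 against 0.01 over all genes tested.

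The edge of the choice was not marked by a gap. The genes just inside the limit of -1.2 in +N were JGI-310067, JGI-334610 and JGI-704679, at -1.203, -1.203 and -1.207, and those just outside were JGI-580889, JGI-637785 and JGI-708141, at -1.199, -1.196 and -1.191.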

How the data were processed

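Total RNA of *L. bicolor* mycelium was sequenced in 20 libraries from a stranded mRNA kit. The authors trimmed reads, mapped them to the JGI v2 transcripts with CLC Genomics Workbench, allowing several hits per read, and deposited read counts and RPKM values per gene model, and the submitters' processing notes name DESeq2. The sources used here do not give whether the counts are of unique or total reads or whether strand was used, so counts of near-identical or overlapping models are uncertain. The deposited RPKM values served only to derive gene length. Counts as deposited were tested with edgeR 4.0.16 in R 4.3.3 (quasi-likelihood test, TMM scaling, default low-count filter, all 20 libraries and 7 media in one fit, Benjamini-Hochberg adjustment over 14725 genes). The 87 genes all passed the filter. The fits were tested on simulated data. Alternatives were other scalings, DESeq2 1.42.0, other filters, fits of only the compared groups, a term for the letter i in library names, single libraries left out and a replicate block. Replicates are named biological in the labels, without saying which cultures were shared.

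The 87 genes and the gene lists were chosen with earlier results of these data known, and 2 keyword patterns were corrected after their matches were seen. Annotation words came from the study's tables and RefSeq symbols: 47 of the 87 had annotation text, and 27 had a RefSeq locus tag, matched by number. Genes named were the 10 lowest in +N, the 6 highest per kilobase in control, up to 3 per gene list, up to 3 per direction with the smallest adjusted p in +P and in +C against −P, the 3 highest and 3 lowest in −C and those at the limit; 1 gene that this rule names is not reported here. Others (the remaining ABC transporters, glutathione transferases, JGI-333006, JGI-315146, JGI-701575, JGI-476306 and the short models) were added after their values were seen.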

Additional observations from a re-analysis of the deposited data

How the results depend on the processing

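The number of genes chosen was 87, and 81 to 94 when 1 library was left out, of which 64 to 87 were shared with the 87. A limit of -1.5 in +N left 29. Calls in +P against −P stayed between 17 and 27 in every alternative run. With only the compared groups fitted, +C against −P gave 14 and +C against control 15 called genes. With 1 library left out the ranges were 17 to 27 in +P against −P, 23 to 31 in +C against −P, 17 to 31 in +C against control, 12 to 25 in +P against control, 0 to 8 in −P against control, 83 to 87 in +N, 9 to 17 in −N and 54 to 58 in −C. In −N, where 20 were called, 13 were with a term for the letter i. That letter, whose meaning is not given, is in the names of all −N libraries. Elsewhere only control replicate 1 and −P replicate 3 carry it, so −N medium and the letter can hardly be told apart. In −P against control DESeq2 gave 2 and no filter gave 1. The cause of these changes was not tested, and shares of all genes called under the alternatives were not counted. Over the named genes in +P and +C against −P, 886 of 968 alternative values kept direction and side of the threshold, 62 lost a call, 20 gained one and 0 reversed. Settings of filter, samples and letter term for these genes, and the counts without the 4 short models, were chosen after seeing the data. Replicate numbers do not pair the samples: of 57 same-numbered pairs of libraries 12 had a correlation of deviations over 0.1 (median -0.02), and 7 of 20 libraries were nearest to one with their own number. A replicate block gave 22 called in +P against −P, 30 in +C against −P, 26 in +C and 20 in +P against control, 0 in −P, 83 in +N, 19 in −N and 57 in −C.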
